A study of Homo sapiens with 19 samples.

Results

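The nuclear receptors by which liver cells sense drugs, bile acids, sterols and steroid hormones were followed as 8 genes in all 7 groups of HepaRG libraries. They are NR1I2 (pregnane X receptor, PXR), NR1I3 (constitutive androstane receptor, CAR), RXRA (retinoid X receptor alpha), VDR (vitamin D receptor), NR1H4 (farnesoid X receptor, FXR), NR1H3 (liver X receptor alpha, LXR alpha), PPARA (peroxisome proliferator activated receptor alpha) and NR3C1 (glucocorticoid receptor, GR). The rows were chosen by symbol, and all 8 were found among 78894 genes in the table. HepaRG is a human hepatic line from 1 tumour whose precursors mature into a mixture of hepatocyte-like and biliary-like cells. In batch 1, differentiated cells received 20 nM of an siRNA against the RNA editing enzyme ADAR (siADAR, 3 libraries), one against the related enzyme ADARB1 (siADARB1, 3 libraries) or a negative control siRNA (siNC, 3 libraries). In batch 2, cells received interferon alpha at 1000 U/mL (IFNa, 2 libraries), 20 nM siADAR together with BX795 at 1 µM (2 libraries), BX795 at 1 µM (3 libraries) or 20 nM siNC (3 libraries). BX795 blocks the kinases TBK1 and IKK epsilon, which act below the sensors of foreign RNA and DNA. The labels leave unstated whether siNC was also given to the IFNa and BX795 wells. Medium was replaced 24 h and 48 h after transfection, the second time without serum, and the compounds were kept in it throughout. Separate cultures are not stated for the replicates, so p-values measure only the spread between these libraries.

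Nuclear receptors are transcription factors switched on by small fat-soluble ligands. PXR and CAR respond to drugs and other foreign chemicals and switch on cytochrome P450, conjugation and transporter genes, which is how one drug can speed the clearance of another. FXR responds to bile acids, LXR alpha to oxysterols, PPAR alpha to fatty acids and VDR to active vitamin D and some bile acids. All of these bind DNA paired with RXR, of which RXRA is the main liver form. GR responds to cortisol, binds DNA as a homodimer, is held ready by HSP90 chaperones, and in human hepatocytes helps to maintain PXR and CAR. HepaRG cells are used for drug induction studies because, once differentiated, they express these receptors together with their target genes.

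Promoter windows, 250 bases before to 50 bases after an annotated start, were read from RefSeq for GRCh38.p14, which held 19 windows for 7 of the 8 receptors. Of these, 4 are printed 5′ to 3′ with each CG step in capitals, because NR1I2, NR1I3 and NR1H4 were the receptors whose control levels differed most between the batches and RXRA was the most abundant receptor.
NR1I2, chr3:119781851-119782150, plus strand: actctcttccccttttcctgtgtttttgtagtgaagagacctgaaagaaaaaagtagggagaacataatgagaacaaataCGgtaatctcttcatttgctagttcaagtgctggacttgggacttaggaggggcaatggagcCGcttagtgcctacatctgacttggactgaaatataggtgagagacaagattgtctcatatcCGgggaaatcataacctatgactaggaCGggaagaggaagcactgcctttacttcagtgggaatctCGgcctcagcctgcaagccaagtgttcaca
NR1I3, chr1:161238154-161238453, minus strand: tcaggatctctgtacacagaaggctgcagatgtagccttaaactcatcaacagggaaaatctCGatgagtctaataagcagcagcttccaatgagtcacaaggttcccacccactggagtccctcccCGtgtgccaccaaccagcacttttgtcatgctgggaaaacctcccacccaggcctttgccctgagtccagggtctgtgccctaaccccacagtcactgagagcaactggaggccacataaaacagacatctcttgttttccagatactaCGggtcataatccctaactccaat
NR1H4, chr12:100503110-100503409, plus strand: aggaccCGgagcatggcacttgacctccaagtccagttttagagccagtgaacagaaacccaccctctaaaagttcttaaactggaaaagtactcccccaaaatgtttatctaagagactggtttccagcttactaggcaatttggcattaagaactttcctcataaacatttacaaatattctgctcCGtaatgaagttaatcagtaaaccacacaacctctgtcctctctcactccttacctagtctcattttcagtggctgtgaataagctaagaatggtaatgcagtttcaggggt
RXRA, chr9:134326205-134326504, plus strand: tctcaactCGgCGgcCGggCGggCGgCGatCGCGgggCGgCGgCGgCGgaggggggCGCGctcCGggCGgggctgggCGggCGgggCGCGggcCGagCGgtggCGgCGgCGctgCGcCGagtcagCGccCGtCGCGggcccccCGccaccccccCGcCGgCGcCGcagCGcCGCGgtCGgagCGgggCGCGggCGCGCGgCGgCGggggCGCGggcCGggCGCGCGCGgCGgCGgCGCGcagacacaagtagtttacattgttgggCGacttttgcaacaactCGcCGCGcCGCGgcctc
The NR1H4 window belongs to a start inside the gene, downstream of the outermost one, and the other 3 to outermost starts. The printed windows hold 5 CG steps in NR1I2, 3 in NR1I3 and 2 in NR1H4, against 65 in RXRA. The median over all 35116 RefSeq promoter windows was 14, with quartiles at 4 and 28. Among the other windows, the second NR1I2 window held 0, the first NR1H3 window 2 and a second RXRA window 8. Both PPARA windows held 52, and those of NR3C1 ranged from 0 to 51. A link between CG steps and control levels was not tested. A search of all windows on both strands for the letters AGGTCA, the half-site that many nuclear receptors bind, found 1 match in NR1H4, 230 bases before the window's start site as TGACCT, and 1 in NR1H3, 140 bases before its start. These letters occur in 13.83% of all windows, and a match is a description, not a binding site. The letters GTTAAT, a half-site for the liver factor HNF1, were found 53 bases before the NR1H4 start and, in an NR3C1 window, 216 bases before the start and, as ATTAAC, 193 bases before it. They occur in 6.88% of all windows. The core of the interferon response element, GAAA followed by any 2 bases and GAAA, was in none of the 19 windows and in 3.57% of all windows.

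By the RefSeq annotation of GRCh38.p14, NR1I2 (ENSG00000144852.20) lies on chromosome 3 at 119782101 to 119818487, NR1I3 (ENSG00000143257.13) on chromosome 1 at 161229669 to 161238203 and RXRA (ENSG00000186350.12) on chromosome 9 at 134326455 to 134440585. VDR (ENSG00000111424.12) and NR1H4 (ENSG00000012504.15) lie on chromosome 12, at 47841537 to 47904994 and 100473866 to 100564414. NR1H3 (ENSG00000025434.19) lies on chromosome 11 at 47248300 to 47269033, PPARA (ENSG00000186951.17) on chromosome 22 at 46150526 to 46243756 and NR3C1 (ENSG00000113580.15) on chromosome 5 at 143277931 to 143435512. In the GENCODE 29 annotation, 20.0% of the NR1I3 exon bases lie opposite exons of TOMM40L, and 4.17% of those of NR1H3 lie opposite exons of ACP2. The libraries were directional, but no source used here says that counting kept the strand, so reads of these stretches may belong to either gene.

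Total counts ranged from 42.7 to 77.1 M per library in batch 1 and from 13.1 to 34.7 M in batch 2. The knockdowns were visible in their targets. Levels are CPM, counts scaled to a common library total within each batch. ADAR stood at 59.6 ± 4.84 CPM with siADAR, against 240 ± 1.28 CPM with siNC (SD, n = 3 each). With BX795 and siADAR it stood at 58.0 ± 2.66 CPM (n = 2), against 290 ± 14.7 CPM with BX795 (n = 3). ADARB1 stood at 9.96 ± 0.497 CPM with siADARB1, against 29.9 ± 1.07 CPM with siNC (SD, n = 3 each). The error after ± is the standard error (SE) for a log2 fold change, and a gene was called where the adjusted p of edgeR's quasi-likelihood test was below 0.05. Both batches held hepatocyte and biliary marker RNA, except EPCAM, which was at 0 counts in every group other than siADARB1. The summed level of 10 hepatocyte markers in the siNC libraries was 12633 to 15065 CPM in batch 2 and 58954 to 63516 CPM in batch 1.

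**Figure D1:**
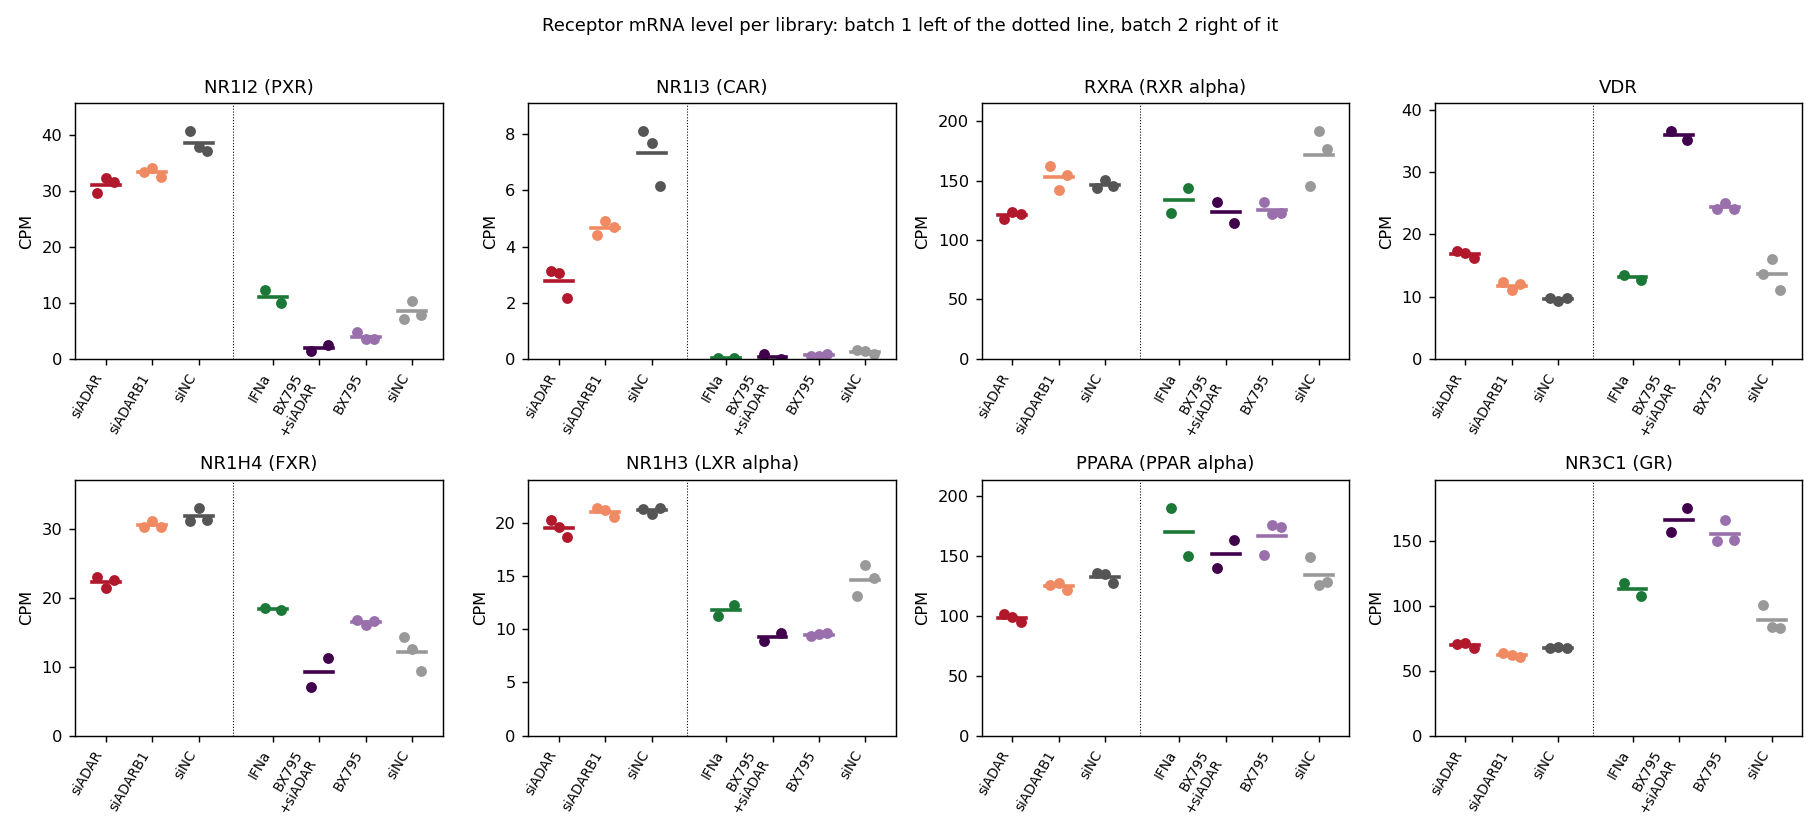
Level of each receptor in every library, in CPM scaled within its batch, on linear axes that start at 0. Points are libraries and bars are group means. The NR1I2, NR1I3 and NR1H4 panels show the low levels of batch 2, and the VDR panel shows both BX795 groups, from 24.2 to 36.7 CPM, above all other batch 2 libraries.

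Among the receptors, RXRA had the highest transcript level per length and VDR the lowest in the batch 1 controls. Per kilobase of the longest transcript, RXRA stood at 25.4 CPM, PPARA at 13.3, NR1H4 at 11.0, NR3C1 at 9.29, NR1I2 at 8.75, NR1H3 at 7.77, NR1I3 at 4.97 and VDR at 2.01 (means of 3 siNC libraries). Only NR3C1 and NR1I2 overlapped among neighbours in this order, with 9.22 to 9.34 and 8.41 to 9.24 CPM per kilobase. In the batch 2 controls the order began with RXRA, PPARA and NR3C1 and ended with VDR, NR1I2 and NR1I3. There PPARA (12.57 to 14.96 CPM per kilobase) overlapped NR3C1 (11.35 to 13.75), and VDR (2.30 to 3.38) overlapped NR1I2 (1.62 to 2.36). On a scale shared by all 19 libraries, NR1I2 had 6.56 to 9.64 CPM in the batch 2 siNC libraries, against 40.7 to 44.4 CPM in those of batch 1. NR1I3 had 0.148 to 0.277 CPM in batch 2 siNC libraries, against 6.73 to 8.84 CPM in batch 1. NR1H4 had 8.52 to 13.2 CPM in batch 2, against 33.8 to 36.1 CPM in batch 1. The xenobiotic and bile acid sensors were thus low in the controls of batch 2, and NR1I3 was close to absent there. The other 5 receptors differed less. Among them NR1H3 was also lower, at 12.1 to 14.9 CPM in batch 2 against 22.8 to 23.5 CPM in batch 1. PPARA stood at 116 to 137 CPM in batch 2 against 140 to 148 CPM in batch 1 and NR3C1 at 75.2 to 91.9 against 73.1 to 74.4 CPM. RXRA and VDR overlapped between the batches. The batches were not set against each other in a test, because batch cannot be told apart from any other difference between these control cultures.

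ADAR knockdown lowered most of the receptors and raised VDR. NR1I3 fell most, NR1H4, PPARA, NR1I2 and RXRA fell by less, and VDR was the 1 receptor that rose. NR1H3 and NR3C1 did not pass the test. Of the 8 receptors, 6 were called with siADAR, as were 37.7% of all 21787 tested genes. Of these, 5 were lower and 1 higher, where 17.6% of all tested genes were called lower and 20.1% higher. The libraries of both groups did not overlap for 7 of 8 receptors, as for 47.9% of all tested genes.

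NR1I3, the sensor that moves to the nucleus when phenobarbital-like drugs are present, had 3.11, 3.07 and 2.16 CPM in the siADAR libraries, against 8.13, 7.70 and 6.14 CPM in the siNC libraries. All 3 siADAR libraries lay below all 3 controls. Its log2 fold change was -1.39 ± 0.14 (adjusted p = 2.84e-06), so the mean level with siADAR was 0.381 times that with siNC. TOMM40L, the gene that overlaps it on the other strand, changed by -0.21 ± 0.05 (adjusted p = 0.00569). NR1I2, which binds rifampicin and many other drugs, had 29.6, 32.3 and 31.6 CPM with siADAR, against 40.8, 38.0 and 37.2 CPM with siNC. The groups did not overlap, and the log2 fold change was -0.31 ± 0.05 (adjusted p = 0.000112). In the single fit of all 19 libraries, whose shared spread is wider than that of batch 1, NR1I2 was not called in this comparison.

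RXRA, the shared partner, had 118, 124 and 122 CPM with siADAR, against 144, 151 and 146 CPM with siNC. It changed by -0.28 ± 0.05 (adjusted p = 0.000288), and no siADAR library reached the lowest control. NR1H4, which limits bile acid synthesis in hepatocytes, had 22.9, 21.5 and 22.5 CPM with siADAR, against 31.1, 33.0 and 31.2 CPM with siNC. Its log2 fold change of -0.51 ± 0.04 (adjusted p = 4.67e-07) was the largest fall after that of NR1I3. PPARA, which drives fatty acid oxidation, had 101, 98.7 and 94.9 CPM with siADAR, against 136, 135 and 128 CPM with siNC. It changed by -0.43 ± 0.04 (adjusted p = 7.64e-07), again with no overlap between the groups.

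VDR moved the other way. It had 17.3, 17.1 and 16.3 CPM with siADAR, against 9.72, 9.26 and 9.85 CPM with siNC, and every siADAR library exceeded every control. Its log2 fold change was 0.81 ± 0.06 (adjusted p = 1.59e-07), or 1.75 times the control level. NR1H3, the oxysterol sensor that promotes cholesterol efflux and fatty acid synthesis, had 19.5 ± 0.801 CPM with siADAR and 21.2 ± 0.319 CPM with siNC (SD, n = 3 each). Its log2 fold change of -0.12 ± 0.05 missed the threshold (adjusted p = 0.0609), although the groups did not overlap. NR3C1 had 69.6 ± 2.05 CPM with siADAR and 67.7 ± 0.425 CPM with siNC (SD, n = 3 each), and its groups overlapped. Its log2 fold change was 0.04 ± 0.04 (adjusted p = 0.415).

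**Figure D2:**
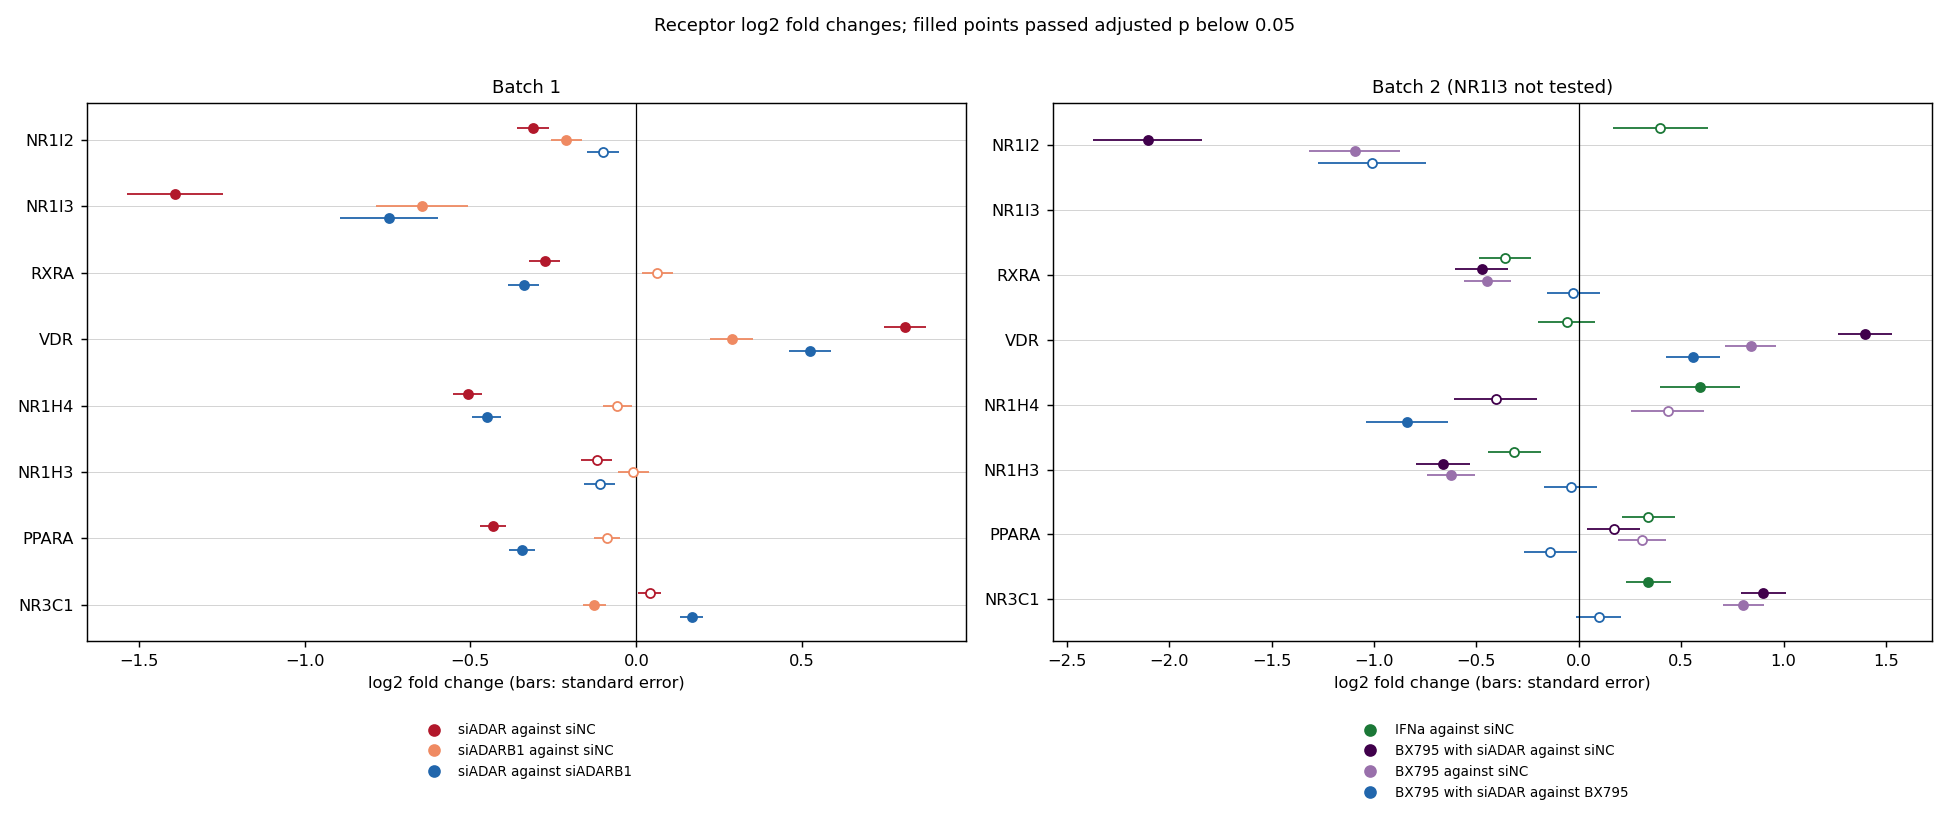
Log2 fold change of each receptor with its standard error, batch 1 on the left and batch 2 on the right. Colours name the comparison, and filled points passed an adjusted p below 0.05. VDR lies right of 0 in every comparison with siADAR or BX795, while NR1I2 lies left of 0 in each of them.

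Receptors outside the set and known target genes were read with siADAR from lists. Of 34 other nuclear receptors tested, 18 fell and 3 rose, with a median log2 fold change of -0.24, against -0.01 over all tested genes. Examples were ESRRA, an orphan receptor of mitochondrial genes (-1.12 ± 0.04), and RORB (-1.03 ± 0.05). Of 17 coregulators and chaperones, 9 fell and 5 rose, against 4 and 2 in the fit of all 19 libraries. The coactivator CREBBP changed by -0.38 ± 0.03. All genes named here passed an adjusted p below 0.05 unless a p is given.

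Target genes of the same receptors fell more often than they rose with siADAR, except those of VDR. Of 12 PXR and CAR targets, 7 fell and 2 rose. CYP2C8, an enzyme that oxidises paclitaxel, changed by -0.82 ± 0.04. ABCB1, which pumps drugs out of cells, changed by -0.54 ± 0.04. CYP3A4, a main drug oxidising enzyme, went the other way with 977 ± 45.3 CPM with siADAR, against 206 ± 12.6 CPM with siNC (SD, n = 3 each). That log2 fold change of 2.25 ± 0.05 stood beside falls of both PXR and CAR. CYP3A4 is also a VDR target. Of 5 VDR targets tested, 4 rose, CYP3A4 itself among them, and none fell. The part of VDR in the CYP3A4 rise was not tested. THBD, an anticoagulant surface protein on the VDR list, changed by 1.79 ± 0.28. THBD was low, at 1.46, 1.57 and 1.72 CPM with siADAR, against 0.453, 0.361 and 0.53 CPM with siNC. CYP24A1, the most specific VDR target, did not pass the filter on low counts.

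Of 8 FXR targets tested, 5 fell and none rose, including the phospholipid exporter ABCB4 (-0.79 ± 0.05) and the bile acid conjugating enzyme BAAT (-0.61 ± 0.04). Of 10 LXR targets, 6 fell and none rose, including the fatty acid synthase FASN (-0.77 ± 0.05) and the cholesterol exporters ABCA1 (-0.58 ± 0.04) and ABCG8 (-0.75 ± 0.06), although NR1H3 itself was not called. Of 14 PPAR alpha targets, 9 fell and 2 rose, and 5 fell in the fit of all 19 libraries. EHHADH, a peroxisomal oxidation enzyme, changed by -0.53 ± 0.04, while CPT1A, the gate of mitochondrial fatty acid import, changed by 0.57 ± 0.03. Of 13 GR targets, 8 fell and 1 rose, among them TSC22D3 (-0.82 ± 0.05) and the gluconeogenic G6PC1 (-0.92 ± 0.08). The riser was the metal-binding MT2A (0.62 ± 0.05). Hepatocyte marker sums moved with these groups, at 42933 to 45697 CPM with siADAR against 58954 to 63516 CPM with siNC, and 6 of 10 hepatocyte markers fell. Biliary and progenitor marker sums were 988 to 1023 CPM with siADAR against 499 to 537 CPM with siNC, and 7 of 8 tested markers rose. The part of these shifts in the receptor changes was not tested, and in bulk RNA fewer cells of a type cannot be told apart from less RNA per cell.

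ADARB1 knockdown was followed by calls for 4 receptors. NR1I3, NR1I2 and NR3C1 fell and VDR rose, while RXRA, NR1H4, NR1H3 and PPARA were not called. Of the 8 receptors, 4 were called with siADARB1, as were 16.7% of all tested genes. Of these, 3 were lower and 1 higher, where 8.44% of all tested genes were called lower and 8.24% higher. Libraries did not overlap for 6 of 8 receptors, as for 32.2% of all tested genes. None of the 8 was called in the fit of all 19 libraries, in which 1065 genes were called in place of 3633.

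NR1I3 had 4.41, 4.90 and 4.69 CPM with siADARB1, against 8.13, 7.70 and 6.14 CPM with siNC, without overlap, and changed by -0.65 ± 0.14 (adjusted p = 0.00485). NR1I2 had 33.4, 34.2 and 32.5 CPM with siADARB1, against 40.8, 38.0 and 37.2 CPM with siNC, and changed by -0.21 ± 0.05 (adjusted p = 0.00664). VDR had 12.3, 11.0 and 12.0 CPM with siADARB1, against 9.72, 9.26 and 9.85 CPM with siNC. It rose by 0.29 ± 0.06 on the log2 scale (adjusted p = 0.00629). NR3C1 had 62.0 ± 1.42 CPM with siADARB1 and 67.7 ± 0.425 CPM with siNC (SD, n = 3 each), a change of -0.13 ± 0.04 (adjusted p = 0.0230). That call was lost when any 1 library other than siADARB1 replicate 1 was left out, with adjusted p of 0.0508 to 0.13. The log2 fold changes of the others lay close to 0, at 0.06 ± 0.05 for RXRA, -0.06 ± 0.04 for NR1H4, -0.01 ± 0.05 for NR1H3 and -0.09 ± 0.04 for PPARA.

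Target genes of PXR and CAR fell together with siADARB1. Of 12 tested, 11 fell and none rose, at a median of -0.26 against 0.00 over all tested genes. CYP2C8 changed by -0.41 ± 0.04 and CYP2A6, the nicotine oxidising enzyme, by -0.72 ± 0.09. CYP3A4 changed by -0.37 ± 0.05. In the fit of all 19 libraries 3 of these 12 were called lower, and the counts of falling FXR, PPAR alpha and LXR targets given next were 3, 4 and 2. Of 8 FXR targets 6 fell, among them NR0B2 (SHP, the FXR-induced repressor of bile acid synthesis) at -0.90 ± 0.12. Of 14 PPAR alpha targets 10 fell and none rose, with PDK4 at -0.58 ± 0.05 and VNN1 at -0.38 ± 0.04. LXR targets gave 4 lower and none higher of 10. Of 5 VDR targets 2 rose and 1, CYP3A4, fell, although the fit of all 19 libraries called 0 lower. GR targets were split, with 4 of 13 higher and 4 lower, and MT2A stood out at 1.66 ± 0.05. Of 34 other nuclear receptors, 5 fell and 2 rose. Hepatocyte marker sums were 51347 to 54242 CPM with siADARB1 against 58954 to 63516 CPM with siNC. Biliary sums were 555 to 563 CPM with siADARB1 against 499 to 537 CPM with siNC, and mesenchymal sums 171 to 177 CPM with siADARB1 against 150.1 to 161 CPM with siNC. The part of these markers was not tested.

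**Figure D3:**
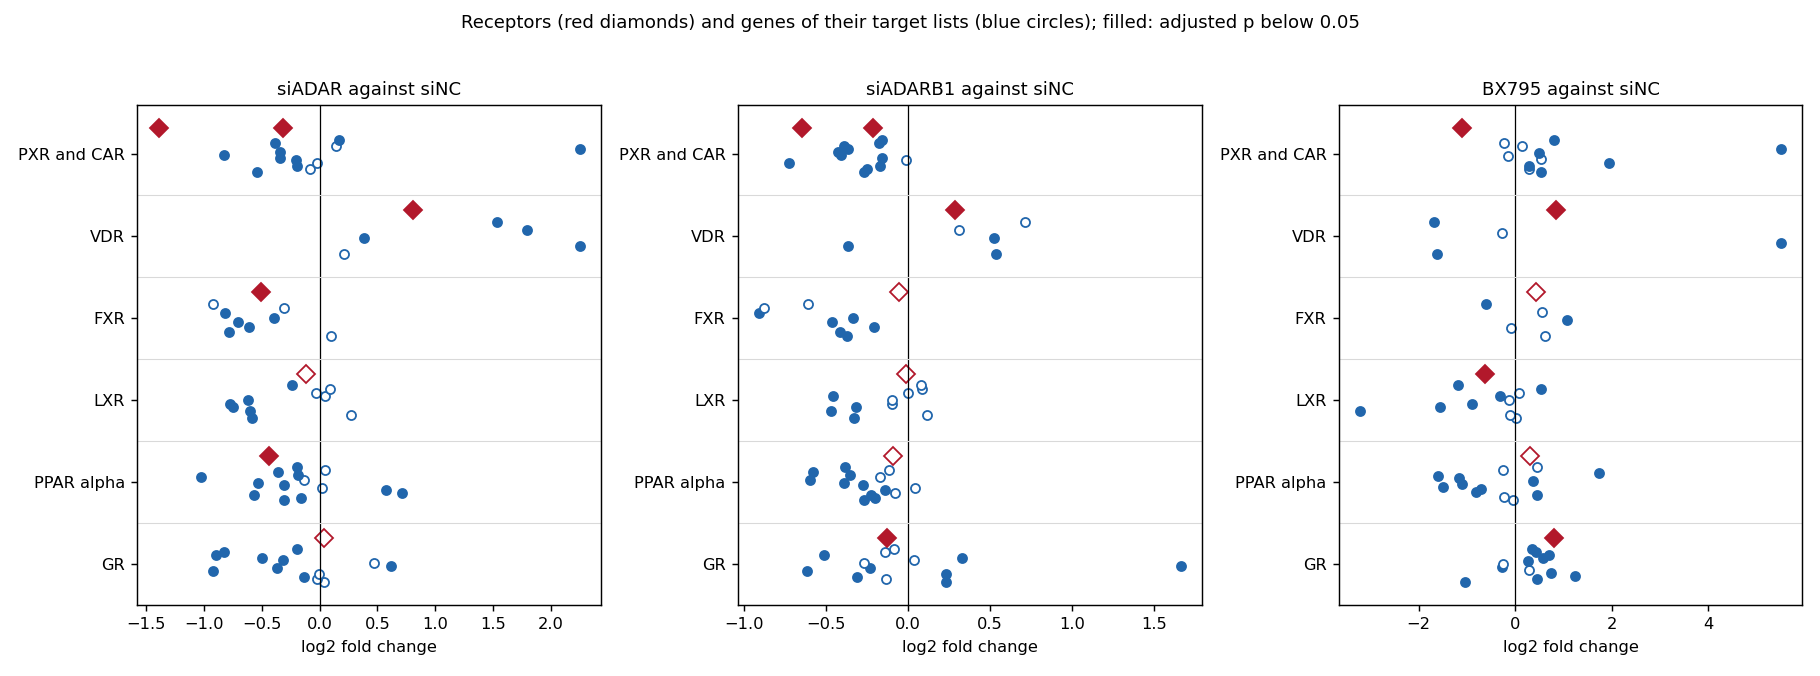
Log2 fold changes of the receptors (red diamonds) and of the genes in each receptor's target list (blue circles) in 3 comparisons, with a scale of its own in each panel. Filled symbols passed an adjusted p below 0.05, and CYP3A4, on the PXR and CAR list and on the VDR list, is the rightmost circle with siADAR (2.25) and with BX795 (5.51).

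Set directly against each other, the knockdowns differed at 6 of 8 receptors, as they did at 35.6% of all tested genes. With siADAR, NR1I3, RXRA, NR1H4 and PPARA were lower and VDR and NR3C1 higher than with siADARB1, where 16.9% of all tested genes were called lower and 18.8% higher. The groups did not overlap for any of the 8, nor for 47.0% of all tested genes. NR1I3 differed by -0.74 ± 0.15 (adjusted p = 0.00107), NR1H4 by -0.45 ± 0.04 (adjusted p = 1.92e-06) and PPARA by -0.34 ± 0.04 (adjusted p = 8.66e-06). RXRA, at 121 ± 3.17 CPM with siADAR and 153 ± 10.3 CPM with siADARB1 (SD, n = 3 each), differed by -0.34 ± 0.05 (adjusted p = 5.05e-05). VDR differed by 0.52 ± 0.06 (adjusted p = 1.22e-05) and NR3C1 by 0.17 ± 0.04 (adjusted p = 0.00176). NR1I2 differed by -0.10 ± 0.05 (adjusted p = 0.122) and NR1H3 by -0.11 ± 0.05 (adjusted p = 0.0865), which does not show that the knockdowns acted alike on them. CYP3A4 was higher with siADAR by 2.62 ± 0.05.

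Interferon alpha gave receptor calls that depended on single libraries. It called 2 of the 7 receptors tested, beside 22.7% of all tested genes. NR1H4 and NR3C1 were called higher and none was called lower among the 7 receptors tested in batch 2, where 11.9% of all 20718 tested genes were called higher and 10.9% lower. NR1I3 had too few counts to be tested. Libraries did not overlap for 5 of 7 receptors, as for 50.0% of all tested genes. NR1H4 had 18.5 and 18.1 CPM with IFNa, against 14.3, 12.5 and 9.37 CPM with siNC, a change of 0.59 ± 0.19 (adjusted p = 0.0489). NR3C1 had 117 and 108 CPM with IFNa, against 100, 83.7 and 82.7 CPM with siNC, a change of 0.34 ± 0.11 (adjusted p = 0.0462). For both genes each IFNa library exceeded each control. Neither call held when siNC replicate 2, siNC replicate 3, IFNa replicate 1 or IFNa replicate 2 was left out, with adjusted p of 0.0622 to 0.324. With a correction for GC content NR1H4 changed by 0.32 and NR3C1 by 0.02, and neither was called.

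The GC content of genes tracked the groups of batch 2. Genes over 60% GC, set against genes under 40% GC on a batch-centred log2 scale, stood at -0.37 and 0.09 in the IFNa libraries, against 0.27, 1.03 and 0.86 in the siNC libraries. They stood at 0.01 and -0.52 with BX795 and siADAR and at -0.22, -0.64 and -0.52 with BX795. The batch 1 libraries lay between -0.09 and 0.11. RXRA has 60.6% GC and NR3C1 39.1%, the extremes among these receptors, so GC-corrected values are given for the receptors against siNC where the correction ended or made a call, turned a direction or moved the value by over 1.5 times.

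The other receptors were not called with IFNa. NR1I2 had 12.3 and 9.93 CPM with IFNa, against 7.15, 10.4 and 7.82 CPM with siNC, and changed by 0.40 ± 0.23 (adjusted p = 0.227). RXRA changed by -0.36 ± 0.13 (adjusted p = 0.0634), PPARA by 0.34 ± 0.13 (adjusted p = 0.0769), NR1H3 by -0.32 ± 0.13 (adjusted p = 0.0968) and VDR by -0.06 ± 0.14 (adjusted p = 0.785). With the GC correction RXRA changed by 0.03 (adjusted p = 0.722), NR1H3 by -0.12 (adjusted p = 0.451) and VDR by 0.09 (adjusted p = 0.639). Among PXR and CAR targets, CYP2B6, which oxidises bupropion and efavirenz, had 0.305 and 0.275 CPM with IFNa, against 1.21, 1.61 and 0.733 CPM with siNC, a change of -2.02 ± 0.33. CYP2B6 was low in every one of these libraries. In all, 2 of 11 tested targets fell and 2 rose, where the GC correction left 1 riser. Of 17 coregulators and chaperones 9 rose and 1 fell, among them the energy-sensing coactivator PPARGC1A (0.95 ± 0.16) and the corepressor NRIP1 (0.88 ± 0.16). Of 33 other nuclear receptors 8 rose and 1 fell. Hepatocyte marker sums were 11874 to 12682 CPM with IFNa against 12633 to 15065 CPM with siNC, and their part was not tested. With 1 library left out, the counts of risers ranged from 0 to 13 coregulators and from 1 to 11 other receptors.

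BX795 moved the receptors in both directions. NR1I2, NR1H3 and RXRA fell, and VDR and NR3C1 rose. Of 7 receptors tested, 5 were called with BX795, as were 42.1% of all tested genes. Of these, 3 were lower and 2 higher, where 21.9% of all tested genes were called lower and 20.2% higher. Libraries did not overlap for any of the 7, nor for 53.2% of all tested genes. NR1H4 and PPARA were above every control but were not called.

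NR1I2 had 4.83, 3.56 and 3.50 CPM with BX795, against 7.15, 10.4 and 7.82 CPM with siNC. All BX795 libraries lay below the lowest control, and the log2 fold change was -1.10 ± 0.22 (adjusted p = 0.00346). VDR had 24.2, 25.0 and 24.2 CPM with BX795, against 13.7, 16.1 and 11.0 CPM with siNC, a rise of 0.84 ± 0.12 (adjusted p = 0.000830). NR3C1 had 149, 166 and 150 CPM with BX795, against 100, 83.7 and 82.7 CPM with siNC, a rise of 0.80 ± 0.10 (adjusted p = 0.000322). With the GC correction the NR3C1 rise was 0.41 and still called. NR1H3 had 9.34, 9.53 and 9.67 CPM with BX795, against 13.1, 16.1 and 14.8 CPM with siNC. It changed by -0.62 ± 0.12 (adjusted p = 0.00257), or -0.34 with the GC correction, again called.

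RXRA had 132, 122 and 123 CPM with BX795, against 145, 192 and 177 CPM with siNC, a change of -0.45 ± 0.11 (adjusted p = 0.0103). Its direction turned with the GC correction, to 0.11 (adjusted p = 0.133), and its call was lost without siNC replicate 2 (-0.33, adjusted p = 0.0580). NR1H4 had 16.5 ± 0.386 CPM with BX795 and 12.1 ± 2.52 CPM with siNC (SD, n = 3 each), a change of 0.43 ± 0.18 (adjusted p = 0.0691), or 0.10 with the GC correction (adjusted p = 0.656). PPARA had 167 ± 14.1 CPM with BX795 and 135 ± 13 CPM with siNC (SD, n = 3 each), a change of 0.31 ± 0.12 (adjusted p = 0.0522).

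PXR and CAR targets went against NR1I2 with BX795. Of 11 tested, 6 rose and none fell, at a median log2 fold change of 0.50, against -0.01 over all tested genes. CYP3A4 had 70.8, 87.6 and 74.8 CPM with BX795, against 1.77, 1.88 and 1.38 CPM with siNC, a change of 5.51 ± 0.21. Its control libraries held 17 to 41 counts each. CYP2B6 had 4.65, 4.62 and 4.69 CPM with BX795, against 1.21, 1.61 and 0.733 CPM with siNC, a change of 1.95 ± 0.23, and the bilirubin conjugating UGT1A1 changed by 0.81 ± 0.11. CYP3A4 shares sequence with other CYP3A genes, whose reads the authors' counting may divide differently. The remaining VDR targets did not follow CYP3A4: CD14 fell by 1.62 and THBD by 1.68 on the log2 scale, while VDR itself rose.

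GR targets rose beside NR3C1, with 8 of 12 called higher and 2 lower. FKBP5, a chaperone partner that GR induces, had 1217, 1378 and 1338 CPM with BX795, against 919, 694 and 748 CPM with siNC, a change of 0.74 ± 0.12, and ERRFI1 changed by 1.24 ± 0.12. Of 10 LXR targets 5 fell and 1 rose, with ABCG8 at -1.56 ± 0.15 and SREBF1, the lipogenic transcription factor, at -1.19 ± 0.15. Of 13 PPAR alpha targets 6 fell and 3 rose. PDK4, a brake on glucose oxidation, changed by 1.73 ± 0.14. Among 33 other nuclear receptors 12 rose and 9 fell, or 4 with the GC correction. The early-response orphan receptors NR4A1 (1.68 ± 0.14) and NR4A3 (2.80 ± 0.32) rose, and the retinoic acid receptor RARA fell (-1.09 ± 0.11). Hepatocyte marker sums were 15428 to 16563 CPM with BX795 against 12633 to 15065 CPM with siNC, although 5 of the 10 markers fell and 2 rose. Biliary sums were 221 to 226 CPM with BX795 against 356 to 403 CPM with siNC, although 2 of 7 tested biliary markers rose and 3 fell. Mesenchymal marker sums were 278 to 279 CPM with BX795 against 414 to 435 CPM with siNC. The part of these shifts in the receptor values was not tested.

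The batch 2 comparisons share their siNC libraries, and those with BX795 share groups as well, so their values are given side by side. With siADAR and BX795 together, NR1I2, NR1H3 and RXRA fell and VDR and NR3C1 rose relative to siNC. Of 7 receptors tested, 5 were called, as were 33.0% of all tested genes. Of these, 3 were lower and 2 higher than siNC, where 16.0% of all tested genes were called lower and 16.9% higher. Libraries did not overlap for 5 of 7, as for 53.7% of all tested genes. NR1I2 had 1.46 and 2.41 CPM with BX795 and siADAR, against 7.15, 10.4 and 7.82 CPM with siNC, a change of -2.11 ± 0.27 (adjusted p = 0.000312) and the lowest NR1I2 level of batch 2. VDR had 36.7 and 35.2 CPM with BX795 and siADAR, against 13.7, 16.1 and 11.0 CPM with siNC, a change of 1.40 ± 0.13 (adjusted p = 5.59e-05) and its highest level of batch 2. NR3C1 had 157 and 175 CPM with BX795 and siADAR, against 100, 83.7 and 82.7 CPM with siNC, and rose by 0.90 ± 0.11 (adjusted p = 0.000240), or by 0.54 with the GC correction, still called. NR1H3 changed by -0.66 ± 0.13 (adjusted p = 0.00390), or by -0.44 with the GC correction, still called.

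RXRA changed by -0.47 ± 0.13 (adjusted p = 0.0171), a call lost with the GC correction (-0.03), with the compared groups alone (adjusted p = 0.0514) and without siNC replicate 2, siNC replicate 3 or BX795 with siADAR replicate 2 (adjusted p 0.061 to 0.186). NR1H4 had 7.10 and 11.2 CPM with BX795 and siADAR, against 14.3, 12.5 and 9.37 CPM with siNC. These groups overlapped, and the change of -0.41 ± 0.20 was not called (adjusted p = 0.144), although with the GC correction it was -0.72 and called. PPARA changed by 0.17 ± 0.13 (adjusted p = 0.335), or by 0.10 with the GC correction. CYP3A4 had 90.2 and 131 CPM with BX795 and siADAR, against 1.77, 1.88 and 1.38 CPM with siNC, a change of 6.02 ± 0.22 in the libraries where NR1I2 was lowest. CYP2C8, by contrast, changed by -1.61 ± 0.22. In all, 3 of 11 PXR and CAR targets rose and 4 fell, or 2 without BX795 with siADAR replicate 1. Hepatocyte marker sums were 9793 to 12267 CPM with BX795 and siADAR against 12633 to 15065 CPM with siNC, and 6 of 10 markers fell. Biliary sums were 277 to 307 CPM with BX795 and siADAR against 356 to 403 CPM with siNC, although 3 of 7 tested biliary markers rose and 3 fell. Mesenchymal sums were 246 to 251 CPM with BX795 and siADAR against 414 to 435 CPM with siNC. The part of these markers was not tested.

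It is unstated whether the wells with BX795 alone received siNC, so loss of ADAR cannot be told apart from transfection in the next contrast. Against BX795 alone, VDR was higher and NR1H4 lower with BX795 and siADAR. These 2 of 7 receptors, 1 in each direction, stood beside 3.66% of all tested genes called, 1.49% higher and 2.17% lower. Libraries did not overlap for 3 of 7, as for 36.1% of all tested genes. VDR had 36.7 and 35.2 CPM with BX795 and siADAR, against 24.2, 25.0 and 24.2 CPM with BX795, a change of 0.56 ± 0.13 (adjusted p = 0.0391). NR1H4 had 7.10 and 11.2 CPM with BX795 and siADAR, against 16.7, 16.0 and 16.7 CPM with BX795, a change of -0.84 ± 0.20 (adjusted p = 0.0426). Neither call was firm. VDR lost its call without any 1 of the 5 libraries (adjusted p 0.111 to 0.295), and NR1H4 without any 1 except BX795 with siADAR replicate 2 (adjusted p 0.104 to 0.338). NR1I2 had 1.46 and 2.41 CPM with BX795 and siADAR, against 4.83, 3.56 and 3.50 CPM with BX795, also without overlap. Its change of -1.01 ± 0.26 was not called (adjusted p = 0.0635). It was called at a like size with the GC correction, without a count filter, in the fit of all 19 libraries and by DESeq2's Wald test (adjusted p 0.0025 to 0.0226). It was called in none of the 5 fits that left out 1 library, where the change ranged from -1.43 to -0.73.

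Of 11 target genes of PXR and CAR, 3 fell in the same contrast and none rose. ABCB1 changed by -0.98 ± 0.13 and CYP2C8 by -1.46 ± 0.21. The other calls were few. Among FXR targets ABCB4 (-1.31 ± 0.18) and the kininogen gene KNG1 (-0.93 ± 0.15) fell, and among LXR targets ABCG8 fell (-1.50 ± 0.19). Of 33 other nuclear receptors, 3 were called lower and none higher, among them NR2F1 (-0.47 ± 0.10) and HNF4A, the receptor that maintains hepatocyte identity (-0.62 ± 0.12). The count of 3 was 6 with the GC correction and 0 to 2 with 1 library left out, and that of PXR and CAR targets was 6 with the GC correction. Hepatocyte marker sums were 9793 to 12267 CPM with BX795 and siADAR, against 15428 to 16563 CPM with BX795. Biliary sums were 277 to 307 CPM with BX795 and siADAR against 221 to 226 CPM with BX795, and mesenchymal sums 246 to 251 CPM with BX795 and siADAR against 278 to 279 CPM with BX795. The part of these markers was not tested.

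The response to siADAR was compared between cultures with BX795, in batch 2, and without it, in batch 1. BX795 cannot be told apart from batch in this contrast, since no batch held siADAR both with and without it. The references may also differ in transfection, with siNC in batch 1 and, in batch 2, BX795 wells for which siNC is unstated. No receptor was called in this difference of differences, where 3.42% of all 23122 tested genes were called. Of the 7 receptors that passed the filter in both batches, 2 had an unadjusted p below 0.05. NR1I3 entered this fit only through batch 1, so its value is not used. By edgeR's quasi-likelihood test the NR1I2 response in batch 2 with BX795 minus that in batch 1 without it was -0.65 ± 0.24 (adjusted p = 0.186). For PPARA the same difference was 0.32 ± 0.13 (adjusted p = 0.260). DESeq2's Wald test called 1 receptor, NR1I2. Without BX795 with siADAR replicate 2, NR1I2 (-1.13, adjusted p = 0.0368) and NR1H4 (-0.72, adjusted p = 0.0355) were called. VDR, which was higher with siADAR in both settings, differed by -0.23 ± 0.14 (adjusted p = 0.511). A missed threshold here does not show equal responses, since the batch 2 groups held 2 and 3 libraries.

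NR1I3 could be read only as counts in batch 2. Summed over each group, it had 2 counts with IFNa, 4 with BX795 and siADAR, 10 with BX795 and 13 with siNC. The first 2 sums cover 2 libraries each and the others 3, at unequal depths. Scaled to CPM, the siNC libraries held 0.163 to 0.302. Those with IFNa (0.0278 and 0.0392) and with BX795 and siADAR (0.154 and 0) lay below them. The BX795 libraries overlapped with siNC. The IFNa sum lies under the limit of 3 counts that a count of 0 allows, and no fold is given for these groups. The fit of all 19 libraries kept the gene only through batch 1, where it is high, so its calls in batch 2 are not used. Without a count filter, batch 2 alone called it in no comparison (adjusted p 0.199 to 0.939). At this level and depth no change of CAR in batch 2 could be called from these counts alone.

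**Figure D4:**
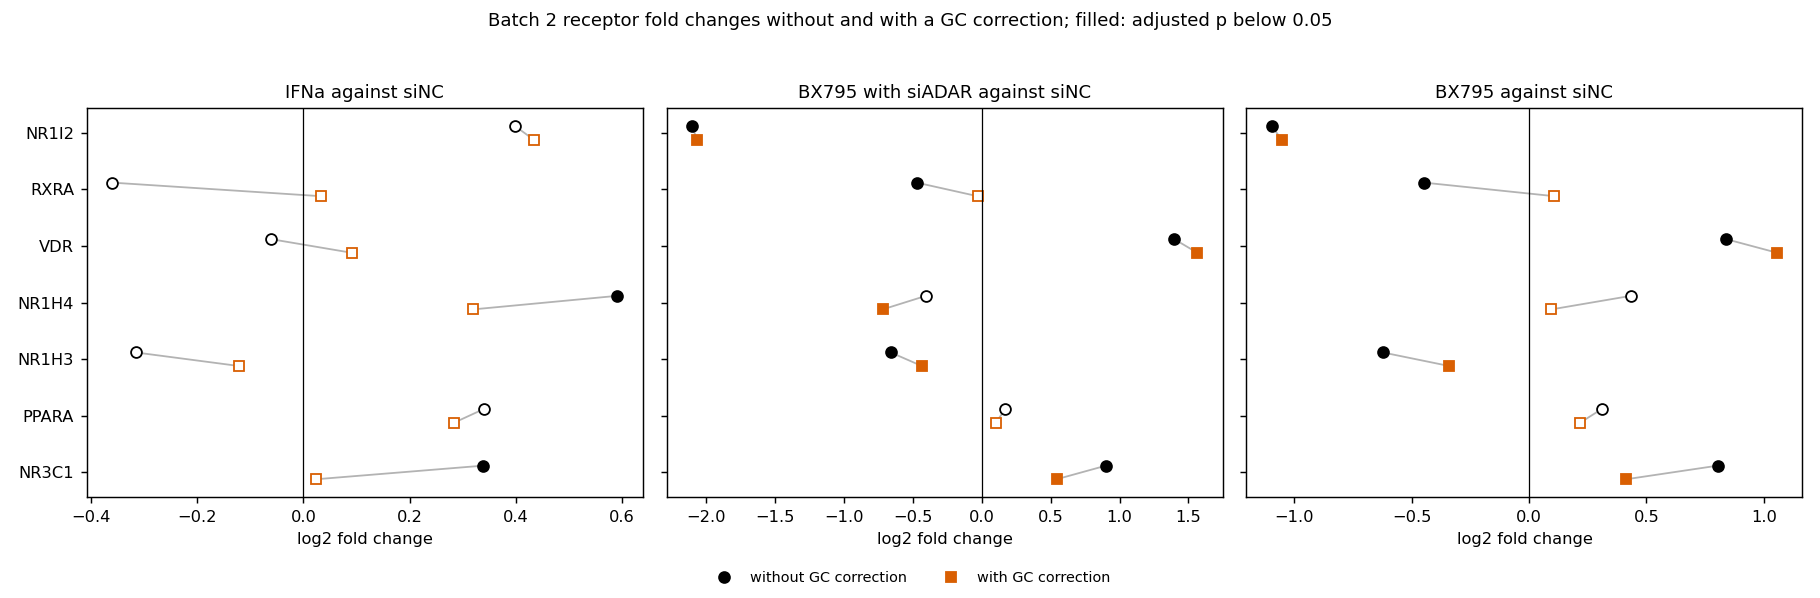
Log2 fold changes of 7 receptors in 3 batch 2 comparisons, without (circles) and with (squares) a correction for gene GC content. Filled symbols passed an adjusted p below 0.05. NR1I2 and VDR kept their place with BX795, while RXRA moved from -0.45 to 0.11.

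The genes whose levels ran most like each receptor were found by Pearson correlation of batch-centred log2 CPM over 19 libraries, among 12439 genes. The libraries share treatment, depth and base composition, so these are descriptions. NR1I2 ran most like UGT2B4, which conjugates bile acids and steroids (r = 0.98), ST3GAL1 (r = 0.97) and the sulfotransferase SULT2A1 (r = 0.96). Within batch 1 alone the r of these pairs was 0.69, 0.83 and 0.90. VDR ran most like CTNNA1 and CLDN1, which encode proteins of cell junctions, and PLXNA2 (r = 0.97, 0.96 and 0.96). NR1H4 ran most like HAO1, a peroxisomal enzyme (r = 0.95), GK and SYNE1. RXRA ran most like TOLLIP (r = 0.98), PPARA like ZKSCAN1 (r = 0.96), NR3C1 like TMX4 (r = 0.99) and NR1H3 like KHK, the fructose kinase (r = 0.96). For TMX4 the r was 0.76 within batch 1 and 0.99 within batch 2, and for KHK it was 0.76 and 0.97. NR1I3 was not eligible, because it did not pass the filter in batch 2.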

How the data were processed

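Gene counts were deposited by the authors as 1 table of expected counts for 19 libraries, made with STAR and Salmon on GRCh38.p14 per the submitters' processing notes. No version, setting or annotation release is stated there. A share of 94.82% of the values was whole to within 0.005, and the rest were rounded. Symbols were matched for 61463 of 78894 genes.

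Each batch was fitted on its own with edgeR 4.0.16 in R 4.3.3 (filterByExpr with a minimum count of 10, TMM scaling, quasi-likelihood F test, 1 mean per group, 6 residual degrees of freedom), because the common biological coefficient of variation was 6.68% in batch 1 and 14.2% in batch 2. P-values were adjusted by Benjamini-Hochberg over all 21787 or 20718 tested genes and called below 0.05. The difference of differences was fitted over all 19 libraries. Alternatives were DESeq2 1.42.0 size factors and Wald test, no count filter, a replicate block, a GC correction by lowess with a span of 0.3 on the longest GENCODE 29 transcript, a fit of all 19 libraries, the compared groups alone and leaving out each library.

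The receptors and all gene lists were chosen with earlier results of these data known. The genes named are the receptors, the siRNA targets from every list up to 3 called members with the lowest p-values and, for each receptor, the 3 most correlated genes. CYP24A1, EPCAM, ACP2, CYP3A4, CYP2B6, CYP2C8, FKBP5 and HNF4A values outside that rule, and TOMM40L, were picked after values were seen. Some genes that this rule names are not reported here.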

Additional observations from a re-analysis of the deposited data

How the results depend on the processing

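The siADAR calls of NR1I3, RXRA, VDR, NR1H4 and PPARA kept their direction and their side of the threshold in all 13 alternatives run, as did the BX795 calls of NR1I2, VDR, NR1H3 and NR3C1. RXRA with BX795 turned to 0.11 with the GC correction. In the fit of all 19 libraries, 0 of 8 receptors were called with siADARB1 and 7 with IFNa, NR1I3 among them although it passed the filter only through batch 1, and all genes called were 5041 with siADAR, 1065 with siADARB1, 4520 for siADAR against siADARB1, 7931 with IFNa and 2201 for BX795 with siADAR against BX795. With the compared groups alone, IFNa called 0 receptors and 2129 genes, and BX795 with siADAR against siNC called 4454. With the GC correction, IFNa called 0 receptors, BX795 with siADAR against BX795 called 1938 genes and the difference of differences 1460. DESeq2 size factors left 1 receptor called with IFNa. The Wald test called 1264 genes for BX795 with siADAR against BX795, and 1 receptor and 1223 genes in the difference of differences. Without a count filter, BX795 with siADAR against BX795 called 1250 genes and the difference of differences 1 receptor. In batch 1, libraries of different groups correlated in their deviations from group means at -0.0827 to 0.116 where same-numbered and at -0.0994 to 0.137 where not. In batch 2 the range for same-numbered libraries was -0.28 to 0.266. The deviations in a group of 2 libraries mirror each other by construction, so the batch 2 range cannot decide whether replicate numbers pair the libraries. With a replicate block, IFNa called 0 receptors and 612 genes, BX795 with siADAR called 3955 genes against siNC, and 0 receptors and 282 genes against BX795. RXRA with BX795 and siADAR also lost its call under the block (adjusted p = 0.0649), and NR1I2 against BX795 was not called under it (adjusted p = 0.145).

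Leaving out 1 library at a time, receptors called ranged from 0 to 5 and genes from 263 to 7509 with IFNa. With BX795 they ranged from 4 to 7 and from 5386 to 9973, and with BX795 and siADAR against siNC from 4 to 5 and from 1982 to 8553. Against BX795 they ranged from 0 to 1 and from 181 to 452, and in the difference of differences from 0 to 2 and from 384 to 744. The lowest gene counts came without IFNa replicate 1 for IFNa, BX795 replicate 2 for BX795, BX795 with siADAR replicate 2 against siNC, and BX795 with siADAR replicate 1 against BX795 and in the difference of differences. In batch 1 receptors and genes called ranged from 6 to 7 and from 7051 to 7699 with siADAR, and from 3 to 4 and from 2660 to 3190 with siADARB1. The cause of these shifts was not tested. Low levels together with the lower depth of batch 2, from 13.1 M counts, limit what can be read there of NR1I3 (0 to 7 counts per library). They limit NR1I2 (38 to 442 counts per library) less. List counts were recomputed in the same way, an alternative chosen after seeing the data.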
